A study of Mus musculus with 48 samples.

Results

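Voltage-gated sodium and calcium channels were described here through the genes of their subunits, in bulk RNA from mouse hypothalamus. The members were chosen by symbol: every gene named Scn followed by a number and a or b, and every gene named Cacna, Cacnb or Cacng followed by a number, with Cacna2d included. These are 40 of the 21558 genes in the table. Of the 40, 33 had a mean of at least 0.5 RPKM (reads per kilobase of transcript, scaled to the mapped reads of the library) over the libraries and were tested. The study holds 48 libraries from male C57BL/6 mice, each made from the pooled tissue of 3 animals, in 8 series of 6 libraries whose titles carry the numbers 1, 5, 9, 13, 17 and 21. The labels give these numbers no unit, and they were taken as hours of a day, which is an assumption. Early mice gave a pair of free-moving series (a, b) beside a pair of hind limb unloading series (a, b), all from mice labelled as 2 months old, kept at 10 dBA and normal air pressure. Hind limb unloading is the suspension of a rodent by its tail so that the hind legs bear no weight. The 4 late series came from mice labelled as 3 months old. The late quiet free-moving and late quiet unloaded series were kept at 10 dBA and normal pressure. The late noise free-moving and late noise unloaded series were kept at 85 dBA and 0.9 atmospheres together, so noise and low pressure cannot be told apart. Each late condition is 1 series, period and age change together between early and late, and the labels of the paired early series do not say how a and b differ. Because each library is a pool, p-values measure only the spread between pools, which may be technical.

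A voltage-gated sodium channel consists of a large pore-forming alpha subunit (the Scn genes ending in a) and smaller beta subunits (those ending in b) that anchor the channel and adjust its gating; the alpha subunits carry the rising phase of the action potential. A high-voltage-activated calcium channel consists of an alpha1 pore with a cytoplasmic beta and an extracellular alpha2delta subunit, which bring the pore to the membrane, while the low-voltage-activated T-type pores can work without them. Calcium entry through P/Q-type and N-type channels triggers transmitter release, entry through L-type channels feeds signalling to the nucleus, and T-type channels support burst firing. Several of the gamma genes encode proteins that chiefly accompany AMPA-type glutamate receptors. In the hypothalamus these channels shape the pacemaking and bursting of clock, feeding and hormone-releasing neurons.

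Sequence is shown for the promoters of the 4 genes on which the results below turn. Scn2a, Scn1a and Cacng2 were the members that differed most between late quiet and early free-moving mice. Cacnb3 was the only member called higher with unloading in late quiet mice. The sequences are the 250 bases before the annotated start, from RefSeq on build GRCm38.p6, read 5′ to 3′ along the gene. Scn2a and Cacnb3, both on the plus strand, have entries for a pair of starts each. The Scn1a and Cacng2 sequences are from the minus strand. Capitals mark every match to a searched motif on either strand.
Scn2a, first start, chr2:65620519-65620768: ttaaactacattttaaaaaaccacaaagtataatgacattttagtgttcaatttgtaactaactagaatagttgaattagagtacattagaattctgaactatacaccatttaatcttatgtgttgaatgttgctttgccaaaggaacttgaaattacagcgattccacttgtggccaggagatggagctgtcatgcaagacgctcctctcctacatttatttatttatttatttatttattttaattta
Scn2a, second start, chr2:65668436-65668685: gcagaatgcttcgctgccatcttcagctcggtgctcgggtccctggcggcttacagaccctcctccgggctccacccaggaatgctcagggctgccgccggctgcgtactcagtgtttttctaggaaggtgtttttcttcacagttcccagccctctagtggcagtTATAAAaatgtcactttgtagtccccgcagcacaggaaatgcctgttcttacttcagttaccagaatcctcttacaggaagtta
Scn1a, chr2:66440838-66441087: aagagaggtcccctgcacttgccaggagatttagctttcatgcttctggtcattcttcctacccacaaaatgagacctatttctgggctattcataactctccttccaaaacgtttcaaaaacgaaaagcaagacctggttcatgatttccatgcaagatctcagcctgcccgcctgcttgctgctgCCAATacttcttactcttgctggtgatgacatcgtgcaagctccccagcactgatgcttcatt
Cacng2, chr15:78119281-78119530: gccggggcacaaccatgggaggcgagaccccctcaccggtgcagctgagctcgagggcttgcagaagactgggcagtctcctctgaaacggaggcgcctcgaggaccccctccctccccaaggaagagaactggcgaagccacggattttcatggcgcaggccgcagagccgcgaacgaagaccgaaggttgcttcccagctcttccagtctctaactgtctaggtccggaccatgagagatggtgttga
Cacnb3, first start, chr15:98632078-98632327: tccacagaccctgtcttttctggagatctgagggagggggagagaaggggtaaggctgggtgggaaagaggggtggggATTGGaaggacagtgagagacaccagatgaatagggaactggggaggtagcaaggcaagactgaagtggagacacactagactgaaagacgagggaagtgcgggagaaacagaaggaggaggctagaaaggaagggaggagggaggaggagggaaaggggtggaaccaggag
Cacnb3, second start, chr15:98634517-98634766: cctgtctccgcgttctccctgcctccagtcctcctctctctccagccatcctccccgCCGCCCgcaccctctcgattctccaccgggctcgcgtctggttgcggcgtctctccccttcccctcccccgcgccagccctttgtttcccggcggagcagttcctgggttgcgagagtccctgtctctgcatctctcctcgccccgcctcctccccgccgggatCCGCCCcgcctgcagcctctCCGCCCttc
Motifs were searched on both strands, and none contains another. The GC box was searched as GGGCGG and the TATA box as TATAAA. The E-box, which clock factors can bind, was searched as CACGTG, and the cyclic AMP response element as TGACGTCA. The box named CCAAT was searched in those letters, and the left part of the RE1 element as TTCAGCACC. The second Scn2a start held 1 TATA box, a motif found in 12.4% of all 32851 promoters in the table. Scn1a and the first Cacnb3 start each held 1 CCAAT box, which 33.8% of all promoters hold. The second Cacnb3 start held 3 GC boxes and no CCAAT box, and was 70.4% G or C with 23 CG dinucleotides. The first Scn2a start and the Cacng2 promoter held none of the motifs. Base composition differed more widely: the window of the first Scn2a start was 29.6% G or C, a value that only 1.5% of all promoters matched or went below, whereas the window of Cacng2 was 62.0% G or C with 16 CG dinucleotides. The table matched 30 of the 40 members with 41 entries. Among these 41, 15 held a GC box against 32.7% of all promoters, and 10 held a CCAAT box. None held the E-box, the cyclic AMP response element or the RE1 part, which 6.0%, 1.5% and 0.3% of all promoters hold. The median G and C content was 56.8% over the member entries, which ranged from 29.6% to 86.4%, and 52.4% over all. On GRCm38 with the GENCODE M21 annotation, Scn3a, Scn2a, Scn1a, Scn9a and Scn7a lie in 1 cluster on chromosome 2, from position 65457118 to 66784914. Scn2b (45117782 to 45130070) and Scn4b (45138395 to 45154152) are neighbours on chromosome 9.

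The estimated depth was 28.3 M to 55.2 M reads per library (median 38.0), and no pair of libraries was identical. Libraries differed in the share of RPKM taken by the 13 protein-coding mitochondrial genes. By series, its mean was 41.8% (a) and 44.5% (b) for early free-moving mice, 20.5% (a) and 34.3% (b) for early unloaded mice, 28.3% and 33.6% in the late noise free-moving and unloaded series, and 11.5% and 14.0% in the late quiet free-moving and unloaded series. In early unloaded series a the library of number 1 stood apart, with 48.2% against 11.2% to 18.5% in the other 5. The 10 pan-neuronal markers together reached 1590 to 1930 RPKM in late quiet free-moving and 1590 to 1820 RPKM in late quiet unloaded mice. They reached 930 to 1620 (a) and 934 to 1200 RPKM (b) in early free-moving mice, and 944 to 1650 (a) and 1160 to 1420 RPKM (b) in early unloaded mice. In the late noise series they reached 1230 to 1700 (free-moving) and 1040 to 1590 RPKM (unloaded). Early free-moving series a thus overlapped the late quiet free-moving series, and series b did not. The summed level of the 10 markers of hypothalamic neurons went the other way, at 1590 to 2630 RPKM in late quiet free-moving and 2390 to 3840 RPKM in late quiet unloaded libraries, against 3230 to 11400 RPKM over the other 6 series. Single genes of that list did not all do so: between late quiet and early free-moving mice 4 of the 10 were called lower and 2 higher. The sum is mainly Avp and Oxt, with medians of 3200 and 1630 RPKM over all libraries, and the next gene is Hcrt at 282 RPKM. The 5 anterior pituitary markers in the table summed to 0.461 to 12000 RPKM (median 1.12) in early unloaded series a. In no other series did this sum pass 19.6 RPKM, the highest value of early free-moving series a. No marker on these lists was at 0 in all libraries. Whether these shifts take part in the differences of the channel genes was not tested, except where a value for them is given below.

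Levels per transcript length spanned a wide range among the members, as the plot of 38 of the genes shows. Cacng7, a gamma-family protein that accompanies AMPA receptors, had a mean of 47.6 RPKM over the 48 libraries. Scn2b had a mean of 42.8 RPKM and Cacnb3, a cytoplasmic calcium channel beta subunit, 38.8 RPKM. Scn3b had 21.99 RPKM and Scn4b 8.02 RPKM, so Scn2b and Scn3b lay above every alpha gene and Scn4b near the highest of them. Of the sodium channel pores, Scn2a had 8.27 RPKM, Scn1a 6.97 RPKM and Scn8a 6.62 RPKM; these are the 3 chief alpha subunits of central neurons. Scn3a, a pore of the developing brain, had 2.82 RPKM. Scn9a (1.83 RPKM) and Scn7a, a sodium-sensing relative of the pores, (1.37 RPKM) were lower. The pores of skeletal muscle (Scn4a) and of pain-sensing neurons (Scn10a and Scn11a) did not reach the limit, and Scn4a was listed at 0 in 20 of 48 libraries.

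Among the calcium channel pores the T-type gene Cacna1g was highest at 15.6 RPKM, followed by Cacna1h at 9.37 RPKM and the N-type pore Cacna1b at 9.26 RPKM. The P/Q-type pore Cacna1a had 8.74 RPKM, the R-type pore Cacna1e 7.47 RPKM and the third T-type pore Cacna1i 6.48 RPKM. The L-type pores Cacna1c and Cacna1d had 2.94 and 2.50 RPKM. The L-type pores of muscle (Cacna1s) and retina (Cacna1f) were below 0.5 RPKM, as were Cacng1 and Cacng6, gamma subunits known from muscle. The alpha2delta gene Cacna2d4, at 0.550 RPKM, was the tested member nearest the limit, and Cacng1, at 0.192 RPKM, the one just under it. Cacna2d1, Cacna2d2 and Cacna2d3 had 10.6, 16.6 and 9.11 RPKM.

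**Figure D1:**
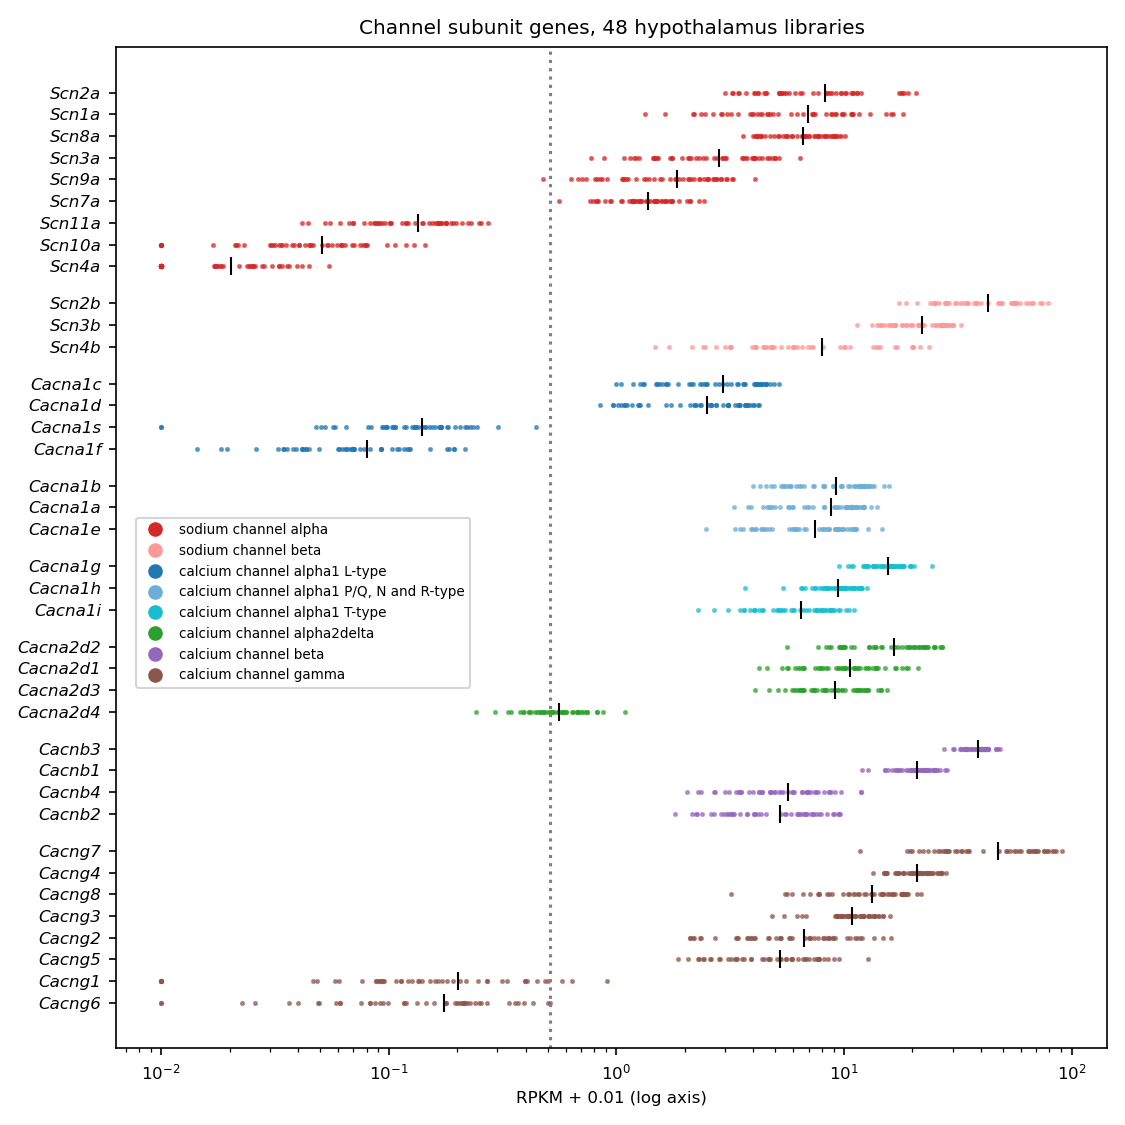
RPKM plus 0.01 (log axis) of 38 member genes in each of the 48 libraries, grouped and coloured by role; each point is 1 library, the black tick is the mean and the dotted line marks the limit of 0.5 RPKM. Cacng7 has a mean of 47.6 RPKM, and 7 members lie left of the line and were not tested.

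The largest differences among the members were between late and early mice that moved freely. In this comparison the late quiet free-moving series was set against the mean of both early free-moving series, by limma on log2(RPKM + 0.5) with Benjamini-Hochberg adjustment over all 13685 tested genes, two-sided. In it, 29 of the 33 tested members were called higher in late mice and 0 lower, where 60.5% of all tested genes were called higher and 18% lower. The median difference was 1.04 on the log2 scale over the members and 0.43 over all tested genes. Markers of some cell types moved with it. Of the pan-neuronal markers 9 of 10 were called higher and 0 lower (median 1.01), and of the thalamic markers 5 of 6 higher and 1 lower (median 1.11). So were 6 of 6 markers of oligodendrocyte precursors (median 0.61) and 6 of 8 astrocyte markers, with 2 lower (median 0.74). Medians were also positive for microglial (0.65), endothelial (0.33), choroid plexus (0.79), striatal (0.19) and oligodendrocyte markers (0.13). They were negative for mural (−0.16), hypothalamic (−0.28), skeletal muscle (−0.72) and anterior pituitary markers (−0.75). With each series centred on its own mean, the correlation of a member with the mean of the pan-neuronal markers over the 48 libraries ran from 0.10 (Cacng4) to 0.94 (Scn2b), with both measures read from the same libraries. The part of these markers in the result was not tested. Scn2a ranged from 17.5 to 20.7 RPKM (median 18.1) in the late quiet free-moving libraries. It ranged from 3.00 to 9.65 RPKM (median 5.96) in early free-moving series a and from 3.23 to 4.53 RPKM (median 3.82) in series b. No early library reached the lowest late one, and the fitted difference was 1.89 ± 0.17 (SE, limma adjusted p = 2e-12), higher at all 6 title numbers. Fewer cells of a type and less RNA per cell cannot be told apart in such bulk samples.

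Scn1a, the pore most used by fast-spiking inhibitory neurons, ranged from 11.6 to 18.2 RPKM in the late quiet free-moving series, from 1.33 to 9.80 RPKM in early free-moving series a and from 2.17 to 3.94 RPKM in series b. Its fitted difference was the largest of the members at 2.07 ± 0.22 (SE, limma adjusted p = 9.3e-11), and late and early libraries did not overlap. Cacng2, known as stargazin, which brings AMPA receptors to synapses, ranged from 9.15 to 16.0 RPKM in the late series and from 2.09 to 7.67 and 2.10 to 3.78 RPKM in the early ones (difference 1.85 ± 0.17, adjusted p = 5e-12). Cacng7 (1.62 ± 0.20, adjusted p = 2.2e-09), Scn2b (1.36 ± 0.15, adjusted p = 4.7e-10) and the calcium channel beta gene Cacnb2 (1.43 ± 0.17, adjusted p = 7.3e-10) completed the 6 members with the smallest p. All 7 sodium channel alpha genes, all 4 beta genes and all 6 gamma genes tested were called higher. So were the P/Q, N and R-type pores (3 of 3), the L-type pores (2 of 2), 3 of 4 alpha2delta genes and 3 of 4 calcium channel beta genes. Of the T-type pores only Cacna1i was called (1.09), while Cacna1g differed by 0.22 (adjusted p = 0.06) and Cacna1h by −0.03 (adjusted p = 0.84). Cacnb3 differed by −0.04 (adjusted p = 0.66) and Cacna2d4 by 0.17 (adjusted p = 0.17).

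Under quantile normalization, which takes the median of all genes to about 0, 25 members were called higher and 3 lower, and under median scaling 23 higher and 3 lower. The 3 lower members were the same in both: Cacna1h at −0.54 and −0.48, Cacnb3 at −0.30 and −0.52, and Cacna1g at −0.19 and −0.24 respectively. Without scaling the difference of Cacna1g was positive, at 0.22. With the mitochondrial share as a covariate 9 members were called higher, with Cacng2 at 1.07, Scn2a at 0.95 and Scn1a at 0.94, and 1 lower, Cacnb3 at −0.30. The sign of 10 members called higher without the covariate turned negative with it, and none of these was called.

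**Figure D2:**
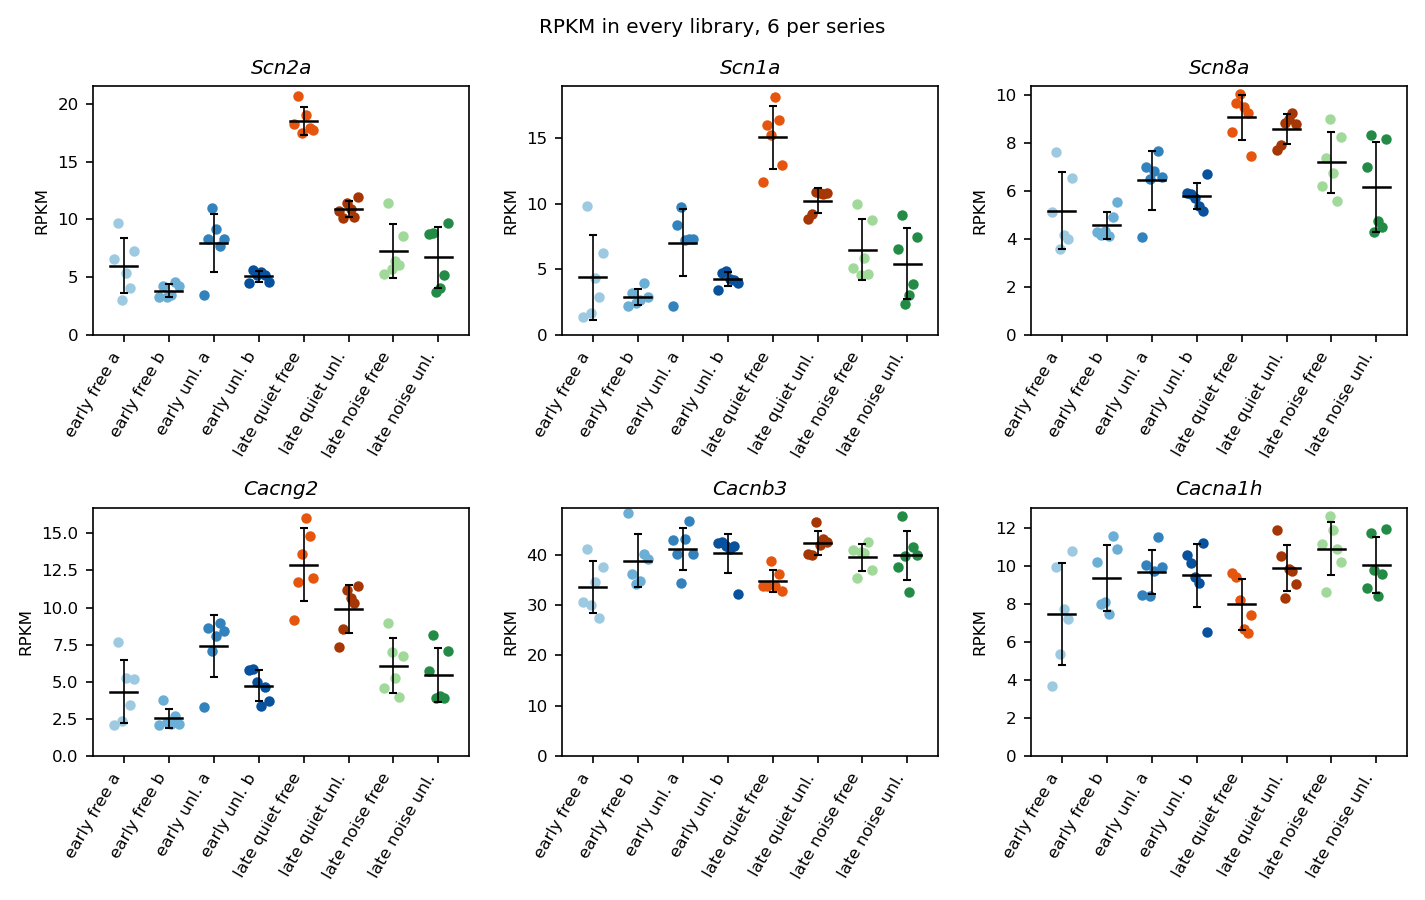
RPKM of 6 member genes in every library, by series; each point is 1 library, the horizontal bar is the mean of 6 and the whisker its SD, and each axis starts at 0. Scn2a lies between 17.5 and 20.7 RPKM in late quiet free-moving mice and no higher than 11.9 RPKM in any other library, while Cacnb3 and Cacna1h do not show this pattern.

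Over all 8 series, 24 of the 33 members had their highest mean in late quiet free-moving mice, and 6 had it in late quiet unloaded mice. The lowest mean was in early free-moving series b for 26 members and in early free-moving series a for 6. For 5 members, Scn1a, Scn2a, Scn2b, Scn3a and Cacnb2, every late quiet free-moving library lay above all 42 other libraries; 10.1% of all tested genes did the same. These 5 are 3 sodium channel pores of 1 cluster on chromosome 2, a sodium channel beta subunit and a calcium channel beta subunit.

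In unloaded mice, 20 members were called higher in the late quiet series than in the mean of both early series and 0 lower, against 38.8% and 8.53% of all tested genes. The median difference was 0.50 over the members and 0.21 over all. Cacnb4, a calcium channel beta subunit of neurons, ranged from 6.55 to 9.71 RPKM in late mice and from 2.03 to 7.49 and 3.34 to 4.70 RPKM in the early series, a difference of 0.74 ± 0.16 (SE, limma adjusted p = 0.00086). Scn2a differed by 0.76 ± 0.17 (adjusted p = 0.00098), Scn3a by 0.77 ± 0.18 (adjusted p = 0.0015), Cacng7 by 0.84 ± 0.20 (adjusted p = 0.0016), Cacng2 by 0.72 ± 0.17 (adjusted p = 0.0016) and Cacna2d3 by 0.54 ± 0.13 (adjusted p = 0.0018), each higher at all 6 title numbers. Early and late libraries overlapped for each of these 6 genes. None of the T-type pores was called; their differences were 0.05 for Cacna1h, 0.22 for Cacna1g and 0.38 for Cacna1i. Against early unloaded series a alone 0 members were called. Adjusting for the mitochondrial share left 2, Cacnb4 (0.43) and Scn2a (0.36).

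In late quiet mice, unloading left 1 member called lower, Scn2a, and 1 higher, Cacnb3, where 12.8% of all tested genes were called (9.38% higher and 3.38% lower). The count depended on the fit: 17 members were called (13 lower and 4 higher) with only these series fitted, 7 under quantile normalization, 6 under median scaling and 5 when adjusted for the mitochondrial share. Scn2a ranged from 10.1 to 11.9 RPKM (median 10.8) in unloaded mice and from 17.5 to 20.7 RPKM (median 18.1) in free-moving mice. The groups did not overlap, and the fitted difference was −0.74 ± 0.19 (SE, limma adjusted p = 0.009), lower at 6 of 6 title numbers. Among all 13685 tested genes Scn2a had rank 591 by p, and rank 100 by size among the lower ones. Cacnb3 ranged from 39.9 to 46.6 RPKM in unloaded mice and from 32.8 to 38.7 RPKM in free-moving mice, without overlap, a difference of 0.28 ± 0.10 (adjusted p = 0.046), higher at 6 of 6 numbers. Scn2a stayed called under quantile normalization (−0.78), median scaling (−0.75) and the covariate for the mitochondrial share (−0.61), and with each title number left out in turn (adjusted p from 0.0079 to 0.045). Cacnb3 lost its call each time a number was left out, with adjusted p from 0.063 to 0.14.

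Other sodium channel genes did not pass in this comparison, and whether they differed from Scn2a was not tested. Scn1a ranged from 8.85 to 10.9 RPKM in unloaded and from 11.6 to 18.2 RPKM in free-moving mice (−0.53, adjusted p = 0.16), and Scn3a from 3.95 to 4.35 and from 4.66 to 6.42 RPKM (−0.29, adjusted p = 0.37). Scn8a, the pore of mature nodes and axon initial segments, ranged from 7.70 to 9.24 and from 7.47 to 10.1 RPKM, which overlap (−0.07, adjusted p = 0.78). Scn2b ranged from 54.1 to 63.1 and from 64.8 to 79.2 RPKM (−0.29, adjusted p = 0.29). In all, the libraries of these series did not overlap for 6 of 33 members, Scn2a, Scn1a, Scn3a, Scn2b, Cacnb2 and Cacnb3, where 24.6% of all tested genes did not overlap. Cacna2d1, the subunit bound by gabapentin, differed by −0.44 ± 0.20 (adjusted p = 0.13). Quantile normalization and median scaling each called 5 members lower, which were Scn2a, Scn1a, Scn2b, Scn3b and Cacna2d1 in both.

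The make-up of the sodium channel pores differed between series. Scn2a made up 32.9% ± 1.2 (SD, n = 6) of the summed alpha-subunit RPKM in late quiet free-moving mice and 26.2% ± 1.1 in late quiet unloaded mice, and its mean share was 22.1% to 26.6% in the other 6 series. Scn8a took 16.1% ± 1.3 in late quiet free-moving mice and 20.6% ± 1.0 in late quiet unloaded mice, against means of 21.9% to 27.2% in the other 6. The ratio of Scn2a to Scn8a RPKM, which does not depend on how a library is scaled, ranged from 1.74 to 2.37 (median 2.07) in late quiet free-moving mice and from 1.11 to 1.39 (median 1.29) in late quiet unloaded mice. It was 0.636 to 1.55 (median 0.993) in the late noise free-moving series and 0.848 to 1.24 (median 1.11) in the late noise unloaded series. The log2 ratio fell by 0.69 with unloading in quiet mice, with no overlap (two-sided exact permutation p = 0.0022, the smallest that 6 against 6 can give). The adjusted p was 0.0043 over 8 tests of this and 1 other ratio, all chosen after the values were seen. Further ratios of members were computed but not tested, so the p-values of these ratios do not account for that choice. With noise and low pressure it fell by 1.06 in free-moving mice (exact permutation p = 0.0022, adjusted p = 0.0043) and by 0.28 in unloaded mice (exact permutation p = 0.026, adjusted p = 0.035). Between the noise series it differed by 0.09 (exact permutation p = 0.65).

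**Figure D3:**
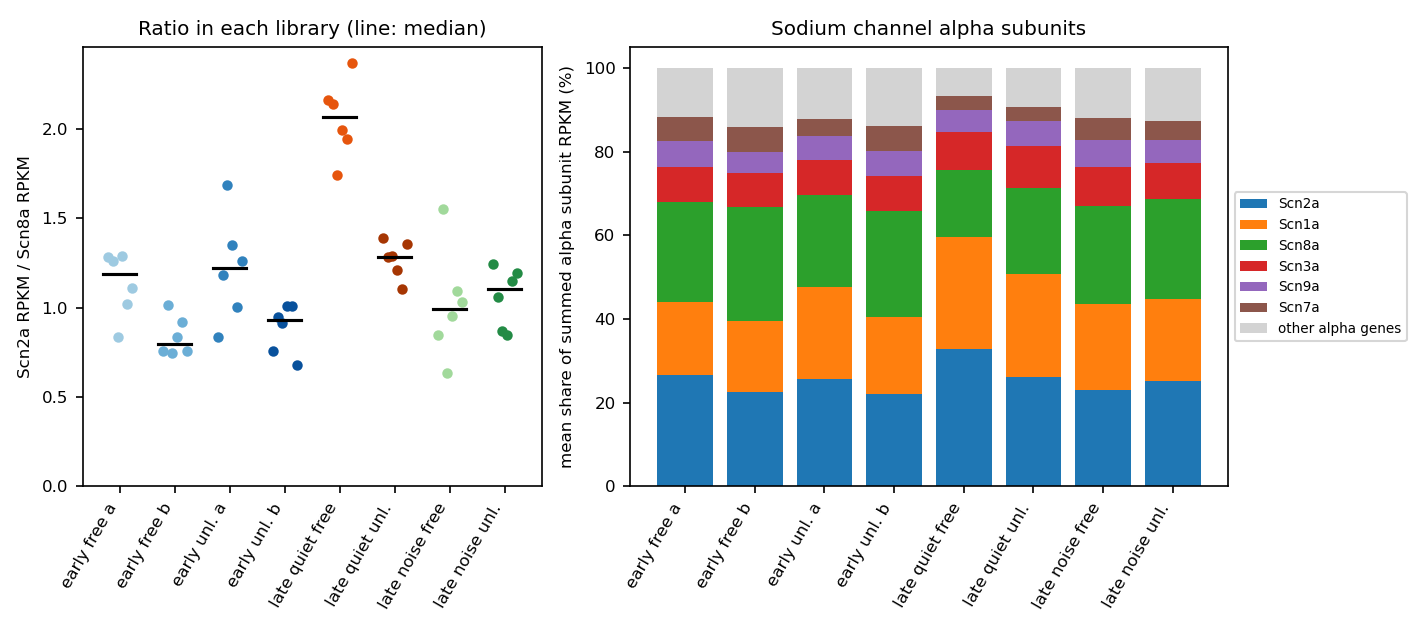
Left, the ratio of Scn2a to Scn8a RPKM in every library by series, with the median as a line; right, the mean share (%) of 6 sodium channel alpha genes in the summed RPKM of all 10, by series, with the other 4 together in grey. All 6 late quiet free-moving libraries, from 1.74 to 2.37, lie above every other library, the highest of which is at 1.69 in early unloaded series a.

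The make-up of the T-type pores differed between the same series. Cacna1i made up 29.4% ± 0.63 (SD, n = 6) of the summed T-type RPKM in the late quiet free-moving series, against means of 16.4% to 22.9% in the other 7. The ratio of Cacna1i to Cacna1h ranged from 1.06 to 1.34 (median 1.23) in late quiet free-moving mice and from 0.756 to 0.999 (median 0.813) in late quiet unloaded mice. Its log2 value fell by 0.56 with unloading, without overlap (two-sided exact permutation p = 0.0022, adjusted p = 0.0043). It fell by 1.01 with noise and low pressure in free-moving mice (exact permutation p = 0.0022, adjusted p = 0.0043) and by 0.62 in unloaded mice (exact permutation p = 0.011, adjusted p = 0.017). Between the noise series it differed by −0.17, with overlap (exact permutation p = 0.53, adjusted p = 0.6). With each series centred on its own mean, r with the log2 odds of the mitochondrial share was −0.91 for Cacna1i and −0.37 for Cacna1h. Neither this ratio nor that of Scn2a to Scn8a was adjusted for the share, and the part of the share in them was not tested. Among the calcium channel beta genes, Cacnb2 took 11.8% ± 0.45 of the summed RPKM in late quiet free-moving mice and means of 4.42% to 9.09% in the other series.

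Noise and low pressure in free-moving mice were compared with the same late quiet free-moving series that the comparisons above use, so these results share control libraries. Of the members, 16 were called lower and 1 higher, against 36.4% and 21.2% of all tested genes, with a median of −0.45 over the members and −0.15 over all. Scn2a ranged from 5.27 to 11.5 RPKM (median 6.25) in the noise series and from 17.5 to 20.7 RPKM in the quiet one, a difference of −1.34 ± 0.19 (SE, limma adjusted p = 3.8e-07). Cacng2 (−1.04 ± 0.20, adjusted p = 2.8e-05), Cacna2d3 (−0.75 ± 0.15, adjusted p = 7.2e-05), Scn2b (−0.87 ± 0.18, adjusted p = 9e-05), Cacnb2 (−0.93 ± 0.19, adjusted p = 0.00011) and Scn1a (−1.20 ± 0.25, adjusted p = 0.00012) followed. These 6 were lower at 6 of 6 title numbers and without overlap. In all 10 of 33 members did not overlap, where 32.6% of all tested genes did not. By role, 4 of 7 sodium channel alpha genes, 3 of 4 beta genes, 3 of 4 alpha2delta genes, 3 of 6 gamma genes and 2 of 4 calcium channel beta genes were called lower. None of the L-type or P/Q, N and R-type pores was called; Cacna1b differed by −0.42 (adjusted p = 0.071) and Cacna1c by −0.45 (adjusted p = 0.073). The T-type pores split: Cacna1i was lower (−0.52) and Cacna1h higher, at 8.64 to 12.7 RPKM in the noise series against 6.48 to 9.64 RPKM (0.43 ± 0.16, adjusted p = 0.018), with overlap. Under quantile normalization and median scaling Cacna1g and Cacnb3 joined Cacna1h as higher (3 higher in each, with 16 and 15 lower). With the mitochondrial share as a covariate 7 members were called higher and 6 lower. Among the higher ones were Cacna1d (0.72), Cacna1h (0.65), Cacna1g (0.55), Cacna1a (0.35), Cacnb3 (0.34) and Cacnb1 (0.24), and 4 of the 7 had a negative difference without the covariate. The lower ones were Scn2a (−0.76), Cacng2 (−0.56), Scn1a (−0.50), Cacna2d3 (−0.42), Cacnb2 (−0.27) and Scn2b (−0.23).

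In the comparison of noise with quiet among unloaded mice, 24 members were called lower and 0 higher, where 45.6% of all tested genes were called lower and 6.75% higher; the median was −0.60 over the members and −0.28 over all. Cacng2 differed by −0.84 ± 0.20 (SE, limma adjusted p = 0.003), Cacnb2 by −0.81 ± 0.19 (adjusted p = 0.003), Cacnb4 by −0.74 ± 0.18 (adjusted p = 0.0035), Scn2b by −0.72 ± 0.18 (adjusted p = 0.0035), Scn1a by −0.99 ± 0.25 (adjusted p = 0.0037) and Scn2a by −0.75 ± 0.19 (adjusted p = 0.0037). Scn2a ranged from 3.71 to 9.72 RPKM in the noise series and from 10.1 to 11.9 RPKM in the quiet series, without overlap. Libraries did not overlap for 6 of 33 members, against 14.3% of all tested genes. All 5 P/Q, N, R and L-type pores and all 4 sodium channel beta genes tested were called lower, with 5 of 7 alpha genes and 4 of 6 gamma genes. The mitochondrial share was 33.6% in the noise series and 14.0% in the quiet one, and with it as a covariate 0 members were called and 10 changed sign. The count was 3 without title number 13, 8 without number 9 and 11 without number 17.

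**Figure D4:**
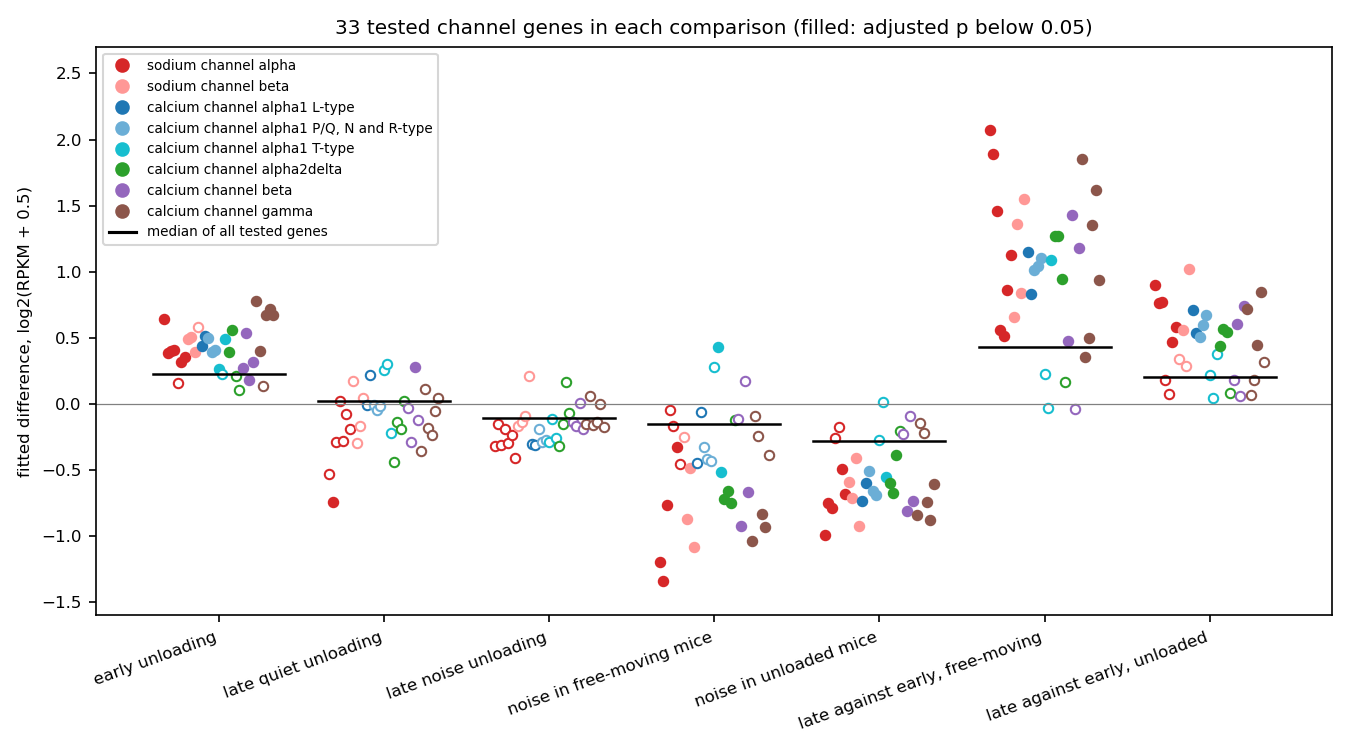
Fitted difference on log2(RPKM + 0.5) for each of the 33 tested members in 7 comparisons, coloured by role; filled points have a limma adjusted p below 0.05 and the black line is the median of all 13685 tested genes. Members lie above that line in most cases between late and early mice (29 called higher in free-moving mice) and below it for noise in unloaded mice (24 called lower); late quiet unloading has 2 filled points, Scn2a and Cacnb3.

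In early mice, unloading was followed by higher values. All 33 members had a positive difference (0.11 to 0.78), and 27 were called higher and 0 lower, against 50.9% and 1.88% of all tested genes. The median was 0.40 over the members and 0.23 over all. Cacng2 ranged from 3.33 to 8.96 RPKM (median 8.25) in unloaded series a and from 3.39 to 5.90 RPKM (median 4.84) in unloaded series b. In free-moving series a it ranged from 2.09 to 7.67 RPKM (median 4.32) and in series b from 2.10 to 3.78 RPKM (median 2.26), so that unloaded and free-moving libraries overlapped. Its difference was 0.78 ± 0.14 (SE, limma adjusted p = 0.0024). Other gamma genes were next, Cacng7 (0.72 ± 0.16, adjusted p = 0.0043) and Cacng5 (0.67 ± 0.15, adjusted p = 0.0043), then Cacna2d2 (0.56 ± 0.14, adjusted p = 0.0044), Scn2b (0.51 ± 0.13, adjusted p = 0.0046) and Cacnb2 (0.54 ± 0.14, adjusted p = 0.0047). The members that were not called were Scn4b (0.58, adjusted p = 0.073), Cacna1h (0.22), Cacna2d3 (0.21), Cacng4 (0.13), Scn7a (0.16) and Cacna2d4 (0.11). The result rested on particular libraries and pairs of series: 17 members were called between series a and a, but 0 between unloaded series b and either free-moving series. Without title number 17 the count was 0, without number 9 it was 1, without number 13 it was 15, and adjusting for the mitochondrial share gave 0, with 9 members turned negative. Under quantile normalization 11 members were called higher and under median scaling 12, in neither case with a lower one, and 6 members changed sign in each.

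The difference between unloaded and free-moving mice was also compared between periods. Age changes with period and each late condition is 1 series, so a cause cannot be assigned. In the contrast of late quiet unloading less early unloading, 12 members were called lower and 0 higher, against 25.6% and 7.98% of all tested genes. Scn2a gave −1.13 ± 0.24 (SE, limma adjusted p = 0.0014), with 0.39 in early and −0.74 in late mice. Cacng2 gave −1.13 ± 0.24 (adjusted p = 0.0016), and Scn1a −1.17 ± 0.31 (adjusted p = 0.0064). Scn2b (−0.80, adjusted p = 0.0079), Cacnb2 (−0.82, adjusted p = 0.0097) and Cacna2d1 (−0.83, adjusted p = 0.01) followed. Without the library of number 1 in early unloaded series a the count rose to 22. Without title numbers 9, 13 and 17 it was 6, 7 and 4, and against early series b alone it was 2. The covariate for the mitochondrial share left Scn2a (−0.59) and Cacng2 (−0.69). Both scalings called 12 lower and 1 higher, Cacnb3.

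Under noise and low pressure, unloading called 0 members and 0.0146% of all tested genes by limma. At an unadjusted p below 0.05 were 1 of 33 members and 855 of all 13685 tested genes. The smallest p values belonged to Cacna1g (−0.29 ± 0.13, adjusted p = 0.77), Scn9a (−0.41 ± 0.21, adjusted p = 0.77) and Scn7a (−0.30 ± 0.16, adjusted p = 0.77). Libraries of the noise series overlapped for all 33 members, and 0.3% of all tested genes did not overlap. Scn2a ranged from 3.71 to 9.72 RPKM in unloaded and from 5.27 to 11.5 RPKM in free-moving mice. Whether unloading acted differently with noise than without was tested as an interaction, in which 0 members and 4.38% of all tested genes were called. An unadjusted p below 0.05 was found for 2 of 33 members and for 2607 of all 13685 tested genes. The values nearest to a call were Cacna1g at −0.55 ± 0.18 (limma adjusted p = 0.065), Scn2a at 0.59 ± 0.27 (adjusted p = 0.21) and Cacnb3 at −0.27 ± 0.14 (adjusted p = 0.27). Scn2a passed under quantile normalization (0.76, adjusted p = 0.0054), median scaling (0.72, adjusted p = 0.016) and the covariate (0.55, adjusted p = 0.02).

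Series that carry the same labels give a measure of how far the members vary without a labelled difference. Between the early free-moving series 0 members and 0.256% of all tested genes were called by limma. An unadjusted p below 0.05 was found for 7 of 33 members and for 2099 of all 13685 tested genes. Between the early unloaded series 0 members and 0.833% of all tested genes were called. Here 10 of 33 members and 4047 of all 13685 tested genes had an unadjusted p below 0.05. Quantile normalization and median scaling each called 3 members in the first comparison and 5 in the second, and the covariate for the mitochondrial share called 3 in the first. The second count rose to 20 lower members without the library of number 1 in early unloaded series a. For a sine and cosine of period 24 in the title number, limma called 0 of 33 members and 1.76% of all tested genes. At an unadjusted p below 0.05 were 1 of 33 members and 1689 of all 13685 tested genes. The smallest p values were those of Cacnb1 (log2 amplitude 0.11 ± 0.04, adjusted p = 0.38), Cacnb2 (0.17 ± 0.07, adjusted p = 0.46) and Cacna1i (0.16 ± 0.07, adjusted p = 0.46). The median amplitude was 0.08 over the members and over all tested genes.

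Genes whose proteins work with these channels were followed through 3 lists. Of 12 tested sodium channel partners, which anchor or modulate the channel, 11 were called higher and 1 lower in late quiet than in early free-moving mice, where 60.5% of all tested genes were higher and 18% lower. In noise against quiet free-moving mice 9 of the 12 were lower and 1 higher, against 36.4% and 21.2% of all. Cntn1 and Nrcam, adhesion proteins of the node and axon initial segment, gave 1.57 each in the first comparison and −1.14 and −1.13 in the second. In late quiet unloading the same genes were called lower, Cntn1 by −0.64 ± 0.16 (SE, limma adjusted p = 0.0062) and Nrcam by −0.66 ± 0.16 (adjusted p = 0.0062), beside Scn2a. Sptbn4, the spectrin of the axon initial segment, was called higher there (0.41, adjusted p = 0.0092), and the other 9 were not called. Of 18 calcium channel partners, 12 were called higher and 4 lower in late against early free-moving mice. With noise in free-moving mice 5 were lower and 4 higher, close to or below the shares of all tested genes (36.4% and 21.2%). In that comparison Rims1, which tethers calcium channels at release sites, fell by 0.98. The calcium release channel Ryr1 rose by 1.04 and Stac3, an adaptor of the muscle L-type channel, by 0.81. Both are low genes, with medians of 1.54 and 0.74 RPKM over all libraries. In late quiet unloading 2 were called higher, Ryr1 (0.60) and Cabp1, a calmodulin relative (0.53), where 9.38% of all tested genes were higher. Of 10 tested related cation channels, 8 were higher and 1 lower in late against early free-moving mice, among them the leak channel Nalcn (1.5). In late quiet unloading 1 was called higher, the lysosomal channel Tpcn2 (0.50), and 1 lower. In early unloading 10, 11 and 7 genes of these lists (12, 18 and 10 tested) were called higher and 0 lower, where 50.9% of all tested genes were higher. In noise against quiet unloaded mice 11, 10 and 6 were called lower, and 0, 1 and 0 higher, where 45.6% of all tested genes were lower and 6.75% higher. In late quiet unloading 12.8% of all tested genes were called.

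Within a series, libraries with a higher mitochondrial share tended to have lower channel levels. After each series was centred on its own mean, the correlation of log2(RPKM + 0.5) with the log2 odds of that share over the 48 libraries was negative for all 33 members, from −0.94 to −0.11, with a median of −0.78 against −0.65 over all tested genes. Both measures come from the same libraries and the same total. For 9 of the 33 members the correlation was negative in all 8 series, and for the others it was not negative in at least 1 of them. For Scn2b Pearson's r was −0.94 and Spearman's rho −0.83 (permutation p = 1e-05 for each, the smallest that 100000 permutations within series can give; adjusted p = 1.8e-05 and 3e-05 over 33 members). Without the 2 libraries farthest from the median r was −0.93. It ranged from −0.98 to 0.20 within single series of 6 libraries, and was negative in 7 of 8. For Scn2a r was −0.81 and rho −0.66 (permutation p = 1e-05 and 9e-05, adjusted p = 1.8e-05 and 0.00016), r was −0.77 without the 2 farthest libraries, and within series it ran from −0.94 to 0.74, negative in 5 of 8. The relation was weaker for Cacnb3 (r = −0.45, rho = −0.31; permutation p = 0.01 and 0.06) and Cacna1h (r = −0.37, rho = −0.40; permutation p = 0.029 and 0.012). It was weakest for Cacna2d4 (r = −0.11, rho = −0.08; permutation p = 0.39 and 0.6).

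Scn4b, a beta subunit that is linked to resurgent sodium current and is abundant in striatum, varied most from library to library. It ranged from 1.47 to 23.7 RPKM over the 48 libraries and from 5.27 to 23.7 RPKM within the late quiet free-moving series alone. Its level moved with the striatal marker Drd1, the dopamine D1 receptor (0.620 to 7.75 RPKM). With series centred, r was 0.85 and rho 0.83 (permutation p = 1e-05 for each, the smallest possible; adjusted p = 2.4e-05 and 3e-05 over 12 markers of thalamus and striatum). Without the 2 farthest libraries r was 0.82, and it was positive in 8 of 8 series, from 0.33 to 0.98. The 6 striatal markers together ranged from 29.2 to 234 RPKM, so no series lacked them, and their part in the differences of Scn4b between series was not tested. For Scn4b the relation with the mitochondrial share did not pass (r = −0.29, rho = −0.19; permutation p = 0.098 and 0.24).

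**Figure D5:**
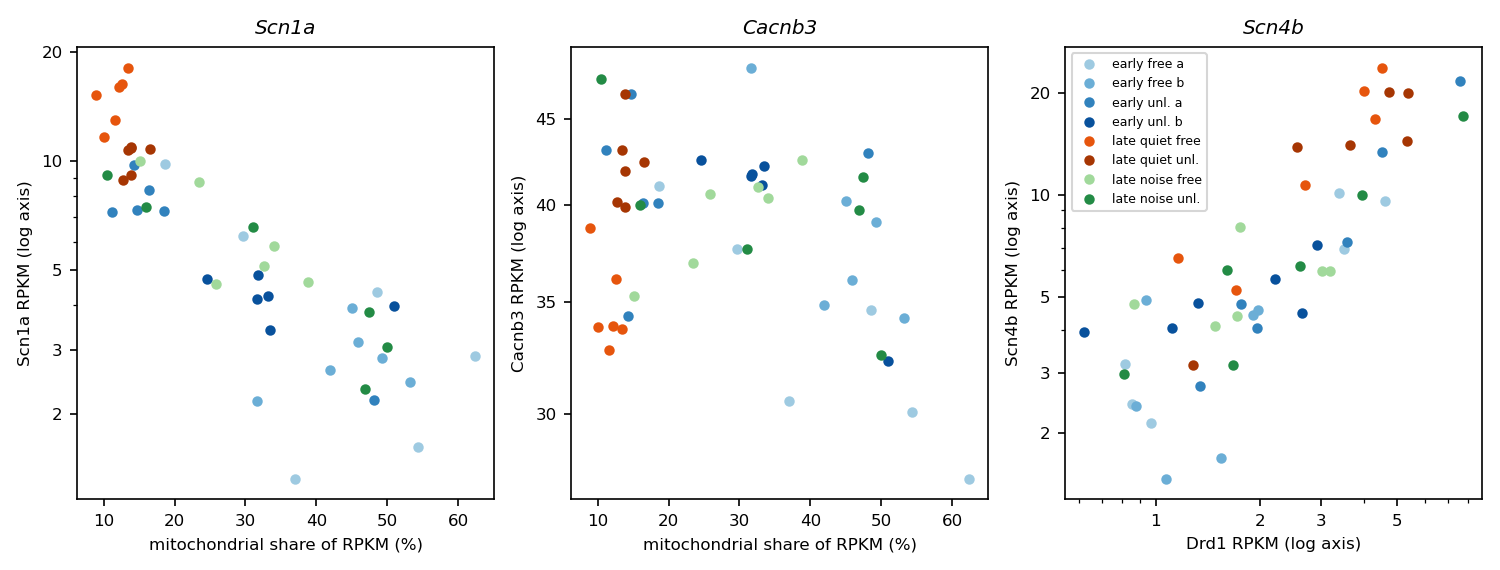
Each point is 1 of 48 libraries, coloured by series: Scn1a and Cacnb3 RPKM (log axes) against the mitochondrial share of RPKM (%), and Scn4b RPKM against Drd1 RPKM (both log axes). Scn1a is low where the share is high, Cacnb3 shows less of this, and Scn4b rises with Drd1 within all 8 series.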

How the data were processed

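The deposited table holds RPKM values for 21558 genes in 48 libraries. Per the submitters' processing notes, CASAVA 1.8 and HISAT were used; HISAT's version is not given in the sources used here, nor are build and annotation. The deposited RPKM values were used without rescaling; read depth, estimated from the steps between low values with GENCODE M21 lengths, left 63.2% to 69.1% of low values (up to 12 reads) whole within 0.02 reads, against 4.0% by chance. Groups came from the sample labels. The 13685 genes with a mean of at least 0.5 RPKM were fitted with limma 3.58.1 (R 4.3.3) on log2(RPKM + 0.5), all 48 libraries in 1 fit with terms for series and title number (35 residual degrees of freedom) and a variance trend. Calls were made at a Benjamini-Hochberg adjusted p below 0.05, two-sided. Fold differences are on this scale and understate the change of low genes. Rhythm was tested by a moderated F test of sine and cosine terms (period 24) in the title number. There were 12 comparisons. Counts cover all members, and the values of some genes are not reported here. Full statistics are given for up to 6 called members with the smallest p, or, where fewer than 3 were called, for the 3 with the smallest p. The fit was tested on simulated data. Libraries of 1 title number correlated with a median r of 0.08 (168 pairs) against −0.02 for other pairs (840 pairs). Alternatives were other scalings, a covariate for the mitochondrial share, fewer series or libraries, another pseudocount and no filter. The members and lists were chosen with earlier results of these data known, and the ratios and relations within series after the values were seen. Python 3.11.15, pandas 2.3.3 and matplotlib 3.10.9 served for promoters and figures.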

Additional observations from a re-analysis of the deposited data

Results flagged for a closer look

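Of 248 groups of 6 libraries (31 members in 8 series), 20 had a highest or lowest library set apart from the other 5 by Dixon's criterion, which chance meets in about 1 in 20 groups. The library of number 1 in early unloaded series a, with a mitochondrial share of 48.2%, was the low one for 10 members: Cacna1a at 3.89 RPKM, Cacna1b at 4.77 RPKM, Cacna1e at 3.31 RPKM, Cacna2d2 at 9.56 RPKM, Cacnb2 at 3.20 RPKM, Cacng2 at 3.33 RPKM, Scn1a at 2.19 RPKM, Scn2b at 25.1 RPKM, Scn3b at 15 RPKM and Scn8a at 4.07 RPKM. The library of number 21 in early unloaded series b was the low one for 3 members: Cacna1e at 4.36 RPKM, Cacnb1 at 15.1 RPKM and Cacnb3 at 32.3 RPKM. In early free-moving series b, number 17 was high for the L-type pores Cacna1c (2.47 RPKM) and Cacna1d (1.90 RPKM), number 9 low for Cacna2d2 (8.33 RPKM) and number 5 high for Cacng2 (3.78 RPKM). Number 5 was high for Scn3a in the late quiet free-moving series (6.42 RPKM) and for Scn3b in the late noise free-moving series (27.4 RPKM). Number 1 was low for Scn4b in the late quiet unloaded series (3.16 RPKM).

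The log2 difference with unloading was lower in late quiet than in early mice for 12 members by the limma interaction, where 25.6% of all tested genes were called lower: Scn2a −1.13, Cacng2 −1.13, Scn1a −1.17, Scn2b −0.80, Cacnb2 −0.82, Cacna2d1 −0.83, Cacng5 −0.90, Scn3b −0.55, Cacna1i −0.71, Cacna2d2 −0.70, Cacng7 −0.78 and Scn3a −0.69. The count was 4 to 14 with a title number left out, and adjusting for the mitochondrial share left Scn2a and Cacng2 called. No explanation of these values was tested.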

How the results depend on the processing

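Counts here are of members called in either direction by limma, and the cause of a change was not tested. Quantile normalization gave 11 for early unloading, 7 for late quiet unloading, 2 for the unloading by noise interaction, 3 for the same-label free-moving and 5 for the same-label unloaded series. Median scaling gave 12, 6, 1, 3 and 5 for these, and 14 for noise in unloaded mice. The covariate for the mitochondrial share gave 0, 5, 3 and 3 for the first 4, 0 for noise in unloaded mice, 10 and 2 for late against early in free-moving and unloaded mice, and 2 for the unloading by period interaction. Median scaling together with that covariate, chosen after seeing the data, gave 0, 7, 3 and 5 for the first 4, then 0, 13, 5 and 3. With only the compared series fitted, the counts were 17 for late quiet unloading, 26 for noise in free-moving mice, and 1 each for the unloading by noise interaction and the same-label unloaded series. Single pairs of early series gave 17 (a against a) and 0 (unloaded b against either free-moving series) for early unloading. Early series a alone gave 0 for late against early in unloaded mice, and early series b alone gave 2 for the unloading by period interaction. Without number 1 of early unloaded series a, left out after seeing the data, the unloading by period interaction had 22 and the same-label unloaded series 20. Leaving out each title number in turn gave 0 to 29 for early unloading, 1 to 1 for late quiet unloading, 3 to 26 for noise in unloaded mice, 4 to 14 for the unloading by period interaction, 0 to 1 for the unloading by noise interaction, 0 to 19 for the same-label unloaded series and 0 to 1 for rhythm. Same-numbered libraries share only a number (median r 0.08); with no replicate block the counts were 25 for early unloading, 2 for late quiet unloading, 16 and 23 for noise in free-moving and unloaded mice, 29 and 19 for late against early, and 11 for the unloading by period interaction, each within 1.5 times the count with the block. For the members given with full statistics, 711 values under alternatives kept their direction and call, 36 gained a call, 81 lost one and 0 changed sign. Over all 33 members and 11 comparisons (363 values), the sign changed in 46 under quantile normalization, 47 under median scaling and 94 under the covariate, of which 1, 1 and 4 were then called and 2, 2 and 24 had been called before. Depth limits the untested members: Scn4a had a median of 2.0 reads per library.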
